A study of Homo sapiens with 10 samples.

Results

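The epithelial-to-mesenchymal transition is driven by a small set of transcription factors and read out by a few structural genes. The genes followed here were the transcription factors SNAI1, SNAI2, TWIST1, TWIST2, ZEB1, ZEB2 and PRRX1, the mesenchymal structural genes VIM and FN1, and the epithelial adhesion gene EPCAM. They were picked by name, as the rows of the deposited count table for these 10 genes. TWIST1 was not analysed here, since no row carries its name, so 9 of the 23089 genes of the table were members. They were followed over all 10 libraries, made from U2OS cells, a human osteosarcoma line with no added transgene, 3 days after transfection with siRNA. The groups were siCtrl 3 and siCtrl 4 (2 different control siRNAs), siH2A.Z1 (the siRNA against H2A.Z.1), siH2A.Z2 (the siRNA against H2A.Z.2) and both of these siRNAs together, each with 2 libraries transfected in parallel. Each H2A.Z isoform was targeted by 1 siRNA, so the isoform and the particular siRNA cannot be told apart.

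H2A.Z is a variant of histone H2A that sits in nucleosomes around transcription start sites and enhancers, and H2AFZ is the gene of its isoform H2A.Z.1 and H2AFV that of H2A.Z.2. SNAI1 and SNAI2 (Snail and Slug) and ZEB1 and ZEB2 are zinc finger repressors that bind E-boxes, short DNA motifs found in promoters of epithelial genes such as CDH1 (E-cadherin). TWIST1 and TWIST2 are basic helix-loop-helix factors and PRRX1 is a homeodomain factor, all 3 known from the development of mesenchyme and bone. VIM (vimentin, an intermediate filament protein) and FN1 (fibronectin, a matrix protein) are their usual mesenchymal readouts. Cells of the bone lineage are mesenchymal from the start, so in U2OS these genes are read here as markers of a mesenchymal state. Whether a change in them is part of a transition was not tested.

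The 2 siRNAs are shown because a siRNA can pair through its seed, bases 2 to 8 of the guide strand, with messages other than its target. The sense strands are written as the study lists them, and the capitals mark the bases that pair with the guide's seed.
H2A.Z.1 siRNA: guaguggguuuUGAUUGAg
H2A.Z.2 siRNA: ggugacaguugUGUGUUGa
The 3' untranslated regions of SNAI2, ZEB1 and EPCAM each held 1 site that the H2A.Z.1 guide's seed can pair with, against 9.91% of the 18780 3' untranslated regions searched (1 transcript a gene, GENCODE on hg38). No such site for the H2A.Z.2 guide was found in the 9 members, while 16.9% of these regions held one. The match of SNAI2 begins at base 900 of its 1209-base region and its sequence is not printed here. The other matches are given with the intended target and with H2AFV, which also held 1, as 25 bases of the message strand with the match in capitals.
H2AFZ (the target), chr4:99948206-99948230, minus strand: agtgggtttTGATTGAgttgactgt
H2AFV, chr7:44834087-44834111, minus strand: tctttacaaTGATTGAtaccatggt
ZEB1, chr10:31528324-31528348, plus strand: attttatgtTGATTGAttttcagaa
EPCAM, chr2:47386927-47386951, plus strand: actgatttgTGATTGAaagctgcct
In libraries with the H2A.Z.1 siRNA alone, the mean level of ZEB1 was 94.3% ± 5.97 of the control mean (SD, n = 2), that of EPCAM 84.5% ± 21.9 and that of H2AFV 98.6% ± 6.10. The control siRNAs differed in H2AFV, so that this was 78.6% of the mean of siCtrl 3 and 132% of that of siCtrl 4. That of SNAI2 was 28.1% ± 3.23. Any part of seed pairing in the level of SNAI2 was not tested.

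Total counts per library lay between 16716990 and 26946836. Levels are given as CPM, counts scaled to library size with TMM factors (the trimmed mean of M values). The lowest members rest on few reads, with 17 to 84 counts of TWIST2 per library. H2AFZ fell to 7.86% ± 0.16 of the control mean with its own siRNA and 9.05% ± 0.11 in the combined depletion, and H2AFV to 33.2% ± 0.61 and 39.0% ± 3.40 (SD, n = 2), so every library matched its label. In siH2A.Z2, H2AFV stood at 26.5% of the mean of siCtrl 3 and 44.6% of that of siCtrl 4, and in the combined depletion at 31.1% and 52.2%. Against all 4 control libraries in edgeR, H2AFV was not called upon H2A.Z.2 depletion (log2 fold change -1.59, SE 0.28, adjusted p = 0.0754). It was called lower upon combined depletion (-1.35, SE 0.28, adjusted p = 0.0228). Of the 9 bone-lineage markers with a row, SPARC (1556 to 2129 CPM over the 10 libraries), COL1A1 (373 to 1405) and RUNX2 (10.8 to 22.8) were present. MSX2 (3.52 to 7.41 CPM), SPP1 (1.21 to 9.93) and ALPL (0.402 to 8.12) were low, and SP7, BGLAP and COL1A2, the partner chain of COL1A1 in type I collagen, had maxima of 0.107, 0.459 and 1.2 CPM. Of the epithelial markers, KRT19 and GRHL2 were at most 0.121 and 0.0391 CPM and ESRP1 at most 0.581 CPM, whereas the keratins KRT8 and KRT18 were present at 68.6 to 152 and 213 to 421 CPM. The 8 epithelial markers summed to 307 to 318 CPM in siCtrl 3, 491 to 534 CPM in siCtrl 4 and 492 to 500 CPM in siH2A.Z1. Most of this sum was KRT18 and KRT8, neither of which was called upon H2A.Z.1 depletion, nor was EPCAM. CLDN4 (1.16 to 21.4 CPM over the 10 libraries) and CDH1 (0.374 to 3.99) were called lower there (-3.14 and -2.84). The 4 haematopoietic markers with a row summed to 0.156 to 0.812 CPM in the control libraries and 1.42 to 1.55 CPM in siH2A.Z1. Of these, CD3E was at most 0.0445 CPM and PTPRC at most 1.21 CPM, and CD14 (at most 0.747 CPM) was called higher upon H2A.Z.1 depletion (3.13, SE 0.81, adjusted p = 0.0297). The 4 endothelial markers summed to 6.33 to 9.09 CPM in the controls and 3.32 to 4.80 CPM in siH2A.Z1. Most of this sum was VWF (2.37 to 7.74 CPM over the 10 libraries). PECAM1 (at most 0.969 CPM) was called lower upon H2A.Z.1 depletion (-2.58, SE 0.76, adjusted p = 0.0441) and combined depletion (-1.88, SE 0.40, adjusted p = 0.0235). Any part of these marker genes in the changes of the members was not tested.

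Per kilobase of exon, the control libraries ranked VIM first, at 567 ± 121 RPKM (CPM per kilobase of exon, SD, n = 4), and FN1 next, at 81.6 ± 37.3 RPKM. ZEB1 was the most abundant of the factors at 10.3 ± 1.55 RPKM, followed by SNAI1 (6.33 ± 1.3 RPKM) and SNAI2 (5.86 ± 1.53 RPKM), whose libraries overlapped in level. TWIST2 (1.26 ± 0.46 RPKM), EPCAM (1.08 ± 0.13 RPKM) and PRRX1 (1.06 ± 0.38 RPKM) overlapped each other and lay below. ZEB2, on chromosome 2 like FN1, TWIST2 and EPCAM, had 0 to 4 counts in every library. This is at or near the level of 3 counts that a count of 0 allows, so ZEB2 did not pass the filter and no fold is given. The fits without the filter and by DESeq2 did not call it. U2OS cells here thus held messages of 1 ZEB factor, both SNAI factors, TWIST2 and PRRX1, and 8 of the 9 members passed the filter on low counts.

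**Figure D1:**
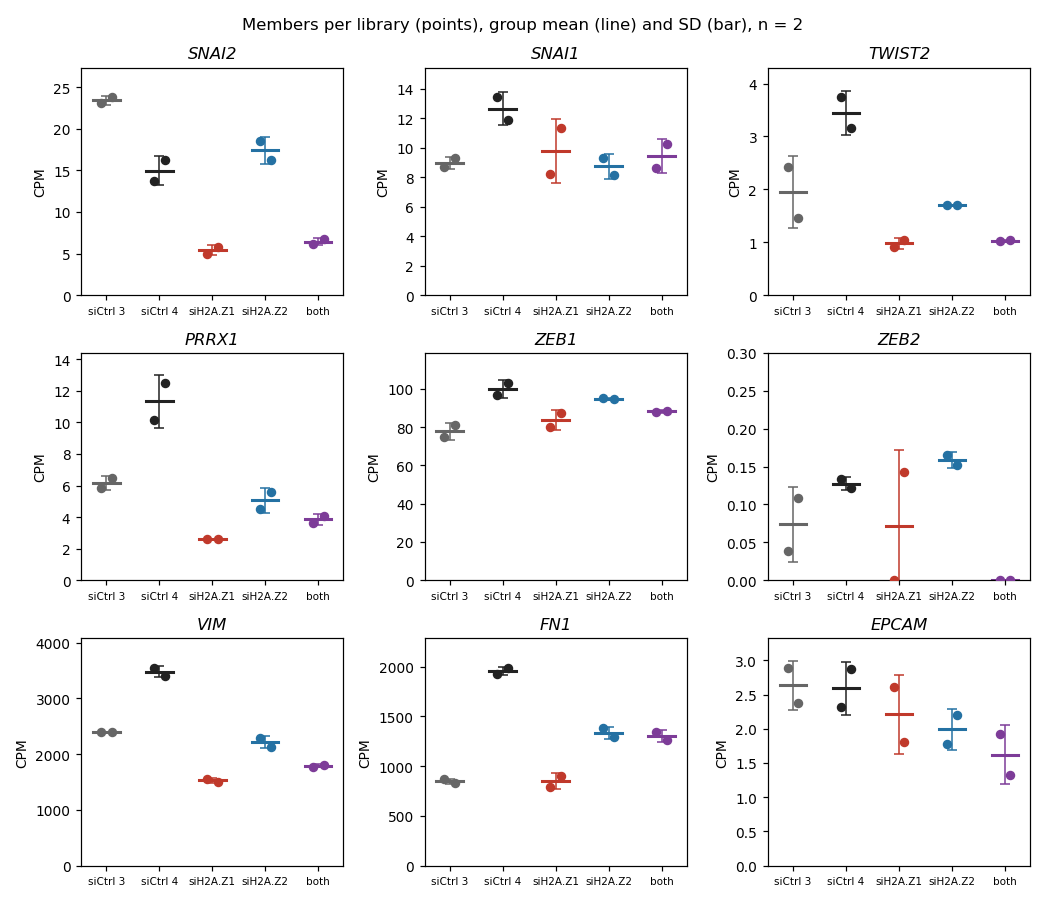
Level of each member (CPM, y axis from 0, own scale per gene) in the 10 libraries. Points are libraries, lines group means and bars SD (n = 2), for siCtrl 3, siCtrl 4, siH2A.Z1, siH2A.Z2 and both siRNAs together. SNAI2 lies at 4.96 to 6.72 CPM in the 4 libraries with the H2A.Z.1 siRNA and at 13.7 to 23.8 CPM in the other 6, and ZEB2 stays at or below 0.166 CPM.

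The control siRNAs themselves differed at these genes. Between siCtrl 4 and siCtrl 3, 7 of the 8 tested members were called, beside 34.5% of all 16486 genes tested. A call needs a p-value below 0.05 after adjustment over all genes and a log2 fold change beyond 0.32 either way. FN1 was higher in siCtrl 4 by 1.21 on the log2 scale (SE 0.08, adjusted p = 6.61e-07), PRRX1 by 0.88 (SE 0.16), TWIST2 by 0.79 (SE 0.24), VIM by 0.54 (SE 0.07), SNAI1 by 0.49 (SE 0.16) and ZEB1 by 0.37 (SE 0.07). SNAI2 went the other way and was lower in siCtrl 4 by a log2 fold change of -0.64 (SE 0.12, adjusted p = 0.00148). EPCAM differed by -0.03 (SE 0.25, adjusted p = 0.929). DESeq2 called 5 of these 7, beside 28.8% of genes, and left out SNAI1 (adjusted p = 0.0563) and TWIST2 (adjusted p = 0.128). With a control library left out, SNAI1 kept its call in 1 of 4 fits (without siCtrl 4 replicate 2), TWIST2 in 2 (lost without siCtrl 3 replicate 2 or siCtrl 4 replicate 1) and ZEB1 in 2 (lost without siCtrl 3 replicate 1 or siCtrl 4 replicate 2). Leaving out any 1 control library left 5 or 6 members called, beside 25.8% to 32.5% of genes. The study compared each depletion with all 4 control libraries together. That pooled comparison is given first below, and each member's value or call against either control siRNA alone stands beside it.

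**Figure D2:**
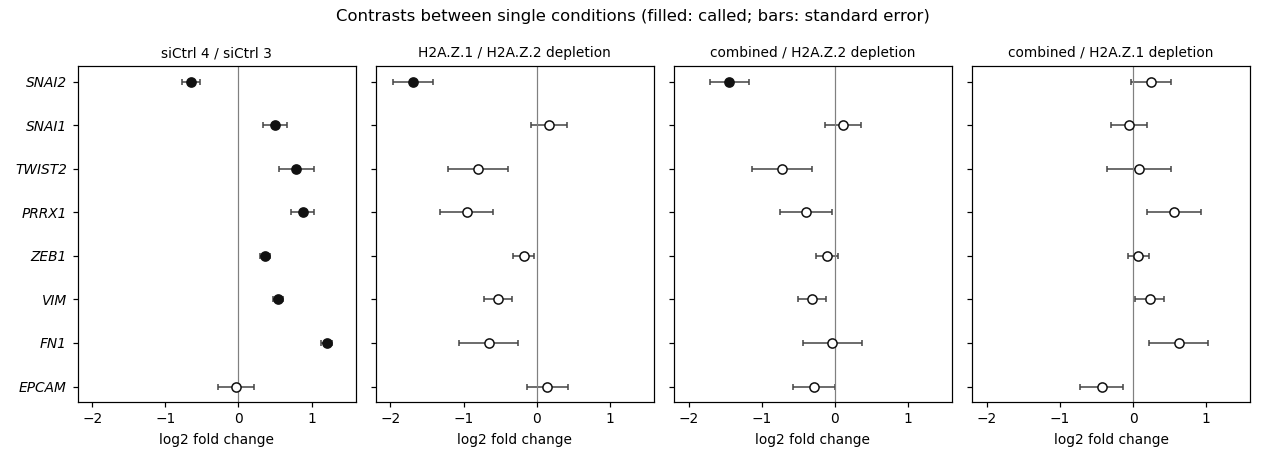
Log2 fold changes of the 8 tested members (x axis) between single conditions, with standard errors as bars and filled points for called genes. Between the control siRNAs 7 members are filled. SNAI2 is the only filled point where libraries with the H2A.Z.1 siRNA are set against siH2A.Z2, and none is filled between the combined and the H2A.Z.1 depletion.

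SNAI2 (chromosome 8, 48917598 to 48921740, minus strand) was lower wherever the H2A.Z.1 siRNA was present. It stood at 23.1 and 23.8 CPM in siCtrl 3, 13.7 and 16.2 CPM in siCtrl 4, 18.6 and 16.3 CPM in siH2A.Z2, 4.96 and 5.84 CPM in siH2A.Z1 and 6.13 and 6.72 CPM in the combined depletion. The 4 libraries with the H2A.Z.1 siRNA lay below all 6 others without overlap. Upon H2A.Z.1 depletion SNAI2 fell by 1.83 on the log2 scale (SE 0.28, adjusted p = 0.00522), and upon combined depletion by 1.57 (SE 0.27, adjusted p = 0.0131). Both calls were also made against siCtrl 3 alone (-2.11 and -1.87) and siCtrl 4 alone (-1.47 and -1.21). Upon H2A.Z.2 depletion the log2 fold change of SNAI2 was -0.14 (SE 0.25, adjusted p = 0.842). It was -0.43 and called against siCtrl 3 alone (adjusted p = 0.0301), and 0.22 against siCtrl 4 alone (adjusted p = 0.245). The SNAI2 libraries of siH2A.Z2 lay between those of the control siRNAs.

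SNAI1 (chromosome 20, 49982980 to 49988886, plus strand), the other SNAI factor, showed no such pattern. Its levels were 8.67 and 9.26 CPM in siCtrl 3, 13.4 and 11.8 CPM in siCtrl 4, 8.22 and 11.3 CPM in siH2A.Z1, 9.32 and 8.11 CPM in siH2A.Z2 and 8.59 and 10.2 CPM in the combined depletion. Only siCtrl 4 stood apart, above every other group, and the remaining 4 groups overlapped with their neighbours in level. The log2 fold changes against the pooled controls were -0.15 (SE 0.23), -0.31 (SE 0.21) and -0.19 (SE 0.21) upon H2A.Z.1, H2A.Z.2 and combined depletion, with adjusted p = 0.660, 0.575 and 0.580. Against siCtrl 4 alone SNAI1 was called lower in the H2A.Z.2 (-0.53) and combined (-0.41) depletions, and against siCtrl 3 alone it was called in no depletion.

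PRRX1 (chromosome 1, 170662728 to 170739421, plus strand) had its lowest level in siH2A.Z1, at 2.62 and 2.61 CPM. It stood at 3.62 and 4.08 CPM in the combined depletion, 4.51 and 5.61 CPM in siH2A.Z2, 5.86 and 6.50 CPM in siCtrl 3 and 10.2 and 12.5 CPM in siCtrl 4, and no 2 neighbouring groups in this order overlapped. It fell by 1.75 on the log2 scale upon H2A.Z.1 depletion (SE 0.36, adjusted p = 0.0142), and the fall was called against siCtrl 3 alone (-1.24) and siCtrl 4 alone (-2.12). Upon combined depletion the pooled value was -1.18 (SE 0.35, adjusted p = 0.0642), and it was called against each control siRNA alone (-0.68 and -1.54). Upon H2A.Z.2 depletion the value was -0.79 (SE 0.35, adjusted p = 0.384), with a call against siCtrl 4 alone (-1.16) and none against siCtrl 3 alone (-0.28).

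TWIST2 (chromosome 2, 238848032 to 238910534, plus strand) followed the same order of groups. It had 0.91 and 1.04 CPM in siH2A.Z1, 1.03 and 1.03 CPM in the combined depletion, 1.70 and 1.71 CPM in siH2A.Z2, 2.42 and 1.46 CPM in siCtrl 3 and 3.74 and 3.15 CPM in siCtrl 4. The first pair of groups overlapped, as did siH2A.Z2 with siCtrl 3. TWIST2 fell by 1.47 upon H2A.Z.1 depletion (log2, SE 0.41, adjusted p = 0.0387). This call is the least firm of the 4, since it was kept only without siCtrl 3 replicate 2 and was lost in the other 5 fits that left out a library (adjusted p at most 0.207), with log2 fold changes between -1.66 and -1.28. It was also lost with the replicate number as a block (adjusted p = 0.0725). Upon combined depletion the value was -1.37 (SE 0.41, adjusted p = 0.0648) and upon H2A.Z.2 depletion -0.66 (SE 0.38, adjusted p = 0.500). Against siCtrl 3 alone and siCtrl 4 alone TWIST2 was called lower both in the H2A.Z.1 depletion (-1.02 and -1.8) and in the combined one (-0.94 and -1.71). Upon H2A.Z.2 depletion it was called lower against siCtrl 4 alone (-1.01, adjusted p = 0.0122) and not against siCtrl 3 alone (-0.22, adjusted p = 0.658).

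VIM (chromosome 10, 17228241 to 17237593, plus strand), by far the most abundant member, moved like PRRX1. Its libraries had 1559 and 1502 CPM in siH2A.Z1, 1768 and 1808 CPM in the combined depletion, 2295 and 2136 CPM in siH2A.Z2, 2396 and 2396 CPM in siCtrl 3 and 3550 and 3406 CPM in siCtrl 4. No 2 neighbouring groups overlapped. VIM fell by 0.94 upon H2A.Z.1 depletion (log2, SE 0.20, adjusted p = 0.0139), to 52.1% ± 1.37 of the control mean (SD, n = 2), and this was called against siCtrl 3 alone (-0.65) and siCtrl 4 alone (-1.18). The combined depletion gave -0.70 (SE 0.20), just outside the threshold against the pooled controls (adjusted p = 0.0519) and inside it against each control siRNA alone (-0.42 and -0.94). Upon H2A.Z.2 depletion VIM was at -0.40 (SE 0.20, adjusted p = 0.422), called only against siCtrl 4 alone (-0.64). In RNA of a whole culture, fewer cells with these messages and less message in each cell cannot be told apart.

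FN1 (chromosome 2, 215360440 to 215436073, minus strand) had a direction that turned with the control siRNA. It stood at 867 and 832 CPM in siCtrl 3, 1930 and 1988 CPM in siCtrl 4, 791 and 903 CPM in siH2A.Z1, 1379 and 1292 CPM in siH2A.Z2 and 1344 and 1262 CPM in the combined depletion. The siH2A.Z1 libraries overlapped with siCtrl 3, and siH2A.Z2 and the combined depletion overlapped with each other between the control siRNAs. The pooled log2 fold changes were -0.73 (SE 0.41), -0.07 (SE 0.40) and -0.10 (SE 0.40) in the H2A.Z.1, H2A.Z.2 and combined depletions, with adjusted p = 0.22, 0.956 and 0.891. Against siCtrl 3 alone FN1 was higher by 0.65 upon H2A.Z.2 depletion (adjusted p = 0.000673) and by 0.62 upon combined depletion (adjusted p = 3.00e-05), whereas against siCtrl 4 alone it was lower, at -0.55 (adjusted p = 0.00258) and -0.57 (adjusted p = 0.000417). Upon H2A.Z.1 depletion FN1 was at -0.0043 against siCtrl 3 alone (adjusted p = 0.969) and at -1.21 against siCtrl 4 alone (adjusted p = 1.37e-07). Opposite calls against the control siRNAs were made for 1.94% of genes upon H2A.Z.2 depletion and 2.32% upon combined depletion.

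ZEB1 (chromosome 10, 31318495 to 31529814, plus strand) stayed within the spread of the controls. Its levels ran from 74.6 and 80.8 CPM in siCtrl 3 through 80.0 and 87.5 CPM in siH2A.Z1, 87.7 and 88.5 CPM in the combined depletion and 95.2 and 94.5 CPM in siH2A.Z2 to 96.8 and 103 CPM in siCtrl 4. All 6 depleted libraries lay inside the range of the 4 control libraries. The log2 fold changes were -0.09 (SE 0.15), 0.10 (SE 0.15) and -0.00054 (SE 0.15) for the H2A.Z.1, H2A.Z.2 and combined depletions, and no fit against either control siRNA alone called ZEB1. The direction of its H2A.Z.1 value turned when counts were scaled by library size only (0.011).

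EPCAM (chromosome 2, 47345158 to 47387601, plus strand), the epithelial member, was low throughout. It had 2.89 and 2.38 CPM in siCtrl 3, 2.32 and 2.87 CPM in siCtrl 4, 2.62 and 1.80 CPM in siH2A.Z1, 1.78 and 2.20 CPM in siH2A.Z2 and 1.92 and 1.32 CPM in the combined depletion, with each group overlapping the next in level. The libraries of the H2A.Z.2 and of the combined depletion lay below all 4 control libraries. The log2 fold change of -0.67 in the combined depletion (SE 0.25) did not pass the threshold (adjusted p = 0.114), and those upon H2A.Z.1 (-0.25, SE 0.25, adjusted p = 0.494) and H2A.Z.2 depletion (-0.39, SE 0.22, adjusted p = 0.490) did not either. Against siCtrl 3 alone the values were -0.28, -0.41 and -0.68 in the H2A.Z.1, H2A.Z.2 and combined depletions, and against siCtrl 4 alone -0.24, -0.37 and -0.64, and none was called.

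**Figure D3:**
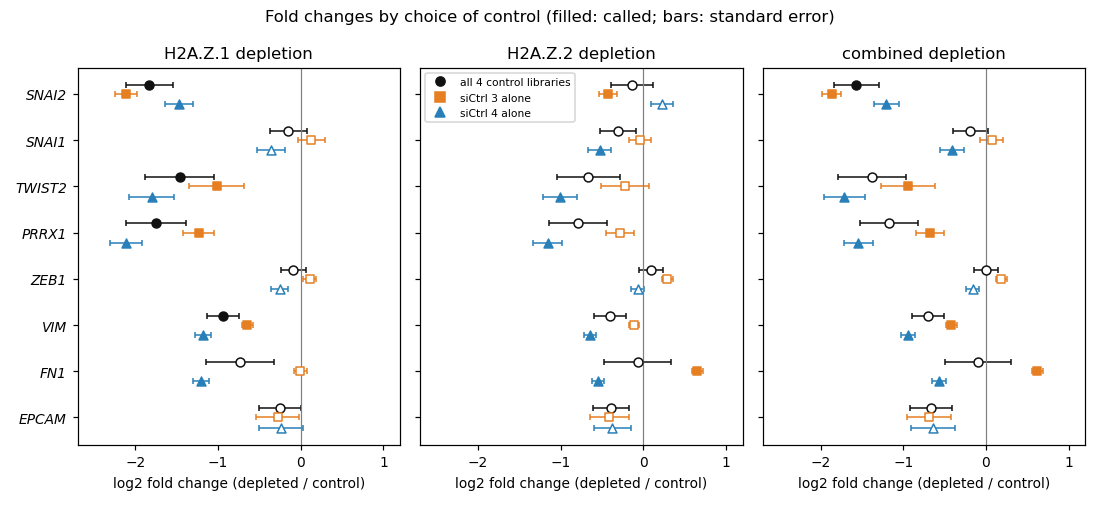
Log2 fold changes of the 8 tested members (x axis) in each depletion against all 4 control libraries (circles), siCtrl 3 alone (squares) and siCtrl 4 alone (triangles). Bars are standard errors and filled symbols are called. SNAI2, TWIST2, PRRX1 and VIM are filled and to the left of 0 against each control siRNA in the H2A.Z.1 and combined depletions, and FN1 is filled on opposite sides of 0 in the H2A.Z.2 and combined depletions.

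Counted over the members, H2A.Z.1 depletion gave 4 lower (SNAI2, PRRX1, TWIST2 and VIM) and 0 higher among 8 tested, where 15.7% of the 16112 genes tested were called lower and 28.0% in either direction. The median log2 fold change of the 8 was -0.84, and that of all genes -0.02. Of all called genes 43.8% were higher, a share that rose to 56.7% when counts were scaled by library size only, with the median of all genes at 0.08. The 4 called members were lower under each scaling. H2A.Z.2 depletion gave 0 of 8 by edgeR, none of them at an unadjusted p under 0.05, beside 0.785% of 16188 genes called and 2223 genes at that unadjusted p. That fit did not call H2AFV, the target of its siRNA, either (adjusted p = 0.0754). DESeq2 also called 0, with PRRX1 at an unadjusted p under 0.05, beside 4.12% of genes. The combined depletion gave 1 of 8 (SNAI2), with 9.35% of 16184 genes called lower and 17.1% in either direction. The share of higher genes among all calls was 45.4% there and 59.1% by library size only. DESeq2 called 4 members lower in the combined depletion, namely SNAI2, PRRX1, TWIST2 and VIM, where it called 12.7% of genes lower. These same 4 members were called lower against each control siRNA alone in the H2A.Z.1 depletion, like 17.2% of genes, and in the combined depletion, like 12.4% of genes. Single control siRNAs gave larger backgrounds in either direction. Against siCtrl 3 alone they were 47.8%, 14.2% and 38.7% of genes in the H2A.Z.1, H2A.Z.2 and combined depletions, and against siCtrl 4 alone 53.0%, 29.6% and 48.0%. The calls rest on the pair of depleted libraries, since without either siH2A.Z1 library no member was called in the H2A.Z.1 depletion (SNAI2 at most adjusted p = 0.0634), and without either library of the combined depletion none was called there (SNAI2 at most adjusted p = 0.142). Over all genes the first pair of fits called 1242 and 881 genes in place of 4505, and the second pair 75 and 147 in place of 2771.

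The depletions were then compared with each other, which takes the control level out of the fold change. In siH2A.Z1 against siH2A.Z2, 1 of 8 members was called, SNAI2 at -1.69 (SE 0.27, adjusted p = 0.00160), beside 32.2% of 16486 genes (43.1% of them higher, or 55.0% by library size only). DESeq2 also called VIM there (adjusted p = 0.0497). By edgeR PRRX1 was at -0.95 (SE 0.36, adjusted p = 0.0717), VIM at -0.53 (SE 0.19, adjusted p = 0.0605) and TWIST2 at -0.80 (SE 0.41, adjusted p = 0.170). In the combined depletion against siH2A.Z2, SNAI2 was again the 1 member called, at -1.44 (SE 0.27, adjusted p = 0.00783), beside 13.8% of genes (34.5% of them higher, or 53.0% by library size only). This call was lost without siH2A.Z2 replicate 1 or either library of the combined depletion (adjusted p at most 0.0940). In the combined against the H2A.Z.1 depletion no member was called by edgeR or DESeq2, with none at an unadjusted p under 0.05 by either, and SNAI2 differed by 0.25 (SE 0.28, adjusted p = 0.691), beside 3.79% of genes. The test of whether the combined effect departed from the sum of the single effects called none of the 8 by edgeR or DESeq2, beside 0.140% of genes. By both tools PRRX1 and VIM were at an unadjusted p under 0.05, with combined values less negative than the sum (1.35 and 0.63 by edgeR, adjusted p = 0.376 and 0.453). By edgeR 1641 of 16486 genes were at that unadjusted p.

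In those fits the 4 control libraries form 1 group, whose spread holds whatever separates siCtrl 3 from siCtrl 4. A fit with the control siRNAs as separate groups was therefore added after the values were seen. It takes the spread from libraries of the same siRNA and the control level as the mean of both siRNAs, and so does not carry over to other control siRNAs. It called 5 of 8 members lower in siH2A.Z1 against siH2A.Z2, namely SNAI2 (-1.69), PRRX1 (-0.96, adjusted p = 0.00113), TWIST2 (-0.79, adjusted p = 0.0387), FN1 (-0.66, adjusted p = 2.79e-05) and VIM (-0.53, adjusted p = 4.15e-05), beside 26.6% of genes called lower. FN1 was then the 1 member called between the combined and the H2A.Z.1 depletion (0.62, adjusted p = 0.000241), beside 19.4% of genes. The departure from additivity was called for PRRX1 (1.27, adjusted p = 0.00783), VIM (0.61, adjusted p = 0.00188) and FN1 (0.57, adjusted p = 0.00576), beside 9.91% of genes. Against the mean of both control siRNAs, this fit called PRRX1 (-0.72) and VIM (-0.38) lower upon H2A.Z.2 depletion, beside 6.56% of genes. It called 5 members lower upon H2A.Z.1 depletion (the 4 above and FN1 at -0.61), beside 24.8% of genes, and 5 upon combined depletion (the 4 above and EPCAM at -0.67, adjusted p = 0.0364), beside 19.8%. SNAI1 and ZEB1 were called in none of these comparisons.

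Other genes of the same biology were taken from 4 lists. Their counts stand beside the 15.7% of all genes called lower and 12.2% called higher upon H2A.Z.1 depletion, 9.35% and 7.77% upon combined depletion, and 0.785% in either direction upon H2A.Z.2 depletion. In the H2A.Z.2 fit by edgeR 2223 of 16188 genes had an unadjusted p under 0.05, and DESeq2 called 4.12% of genes upon H2A.Z.2 depletion. Of 32 mesenchymal effector genes, 30 were tested upon H2A.Z.1 depletion, of which 16 were lower, 2 were higher and 12 were not called, with a median log2 fold change of -0.68. TGFBI, a matrix protein induced by TGF-beta, fell by 2.86 (SE 0.20, adjusted p = 0.000479), from 518 to 71.6 CPM in the mean. CNN1 (calponin, a smooth muscle actin-binding protein) fell by 2.09 (SE 0.32, adjusted p = 0.00483), whereas TAGLN (transgelin, also actin-binding) rose by 1.16 (SE 0.16, adjusted p = 0.00388). In the combined depletion 5 of 30 were lower and 6 higher, with a median of -0.03. There TGFBI (-1.56) and CNN1 (-1.38) were again lower, and COL3A1 (a fibrillar collagen, 1.48) and PDGFRA (a receptor of platelet-derived growth factor, 1.11) were higher. Upon H2A.Z.2 depletion 2 of 29 were higher, PDGFRA (0.75, SE 0.10, adjusted p = 0.0359) and FSTL1 (0.69, SE 0.08, adjusted p = 0.0294), and both lost the call whichever library was left out. DESeq2 called 4 higher there, and 9 had an unadjusted p under 0.05 by edgeR. With a library left out, TGFBI and TAGLN kept their H2A.Z.1 calls in all 6 fits and CNN1 in 4.

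Of 32 epithelial genes, 18 were tested upon H2A.Z.1 depletion, of which 7 were lower, 1 was higher and 10 were not called, with a median of -0.44. JUP (plakoglobin of junctions and desmosomes) fell by 3.31 (SE 0.52, adjusted p = 0.00528), from 15.4 to 1.55 CPM, and CLDN4 (a tight junction claudin) fell by 3.14 (SE 0.32, adjusted p = 0.00117), from 16.7 to 1.89 CPM. CDH1, named after its values were seen as the textbook target of the E-box repressors, fell by 2.84 (SE 0.46, adjusted p = 0.0063). Its level was low, at 0.374 to 3.99 CPM over the 10 libraries. In the combined depletion 6 of 18 were lower and 0 higher, with CLDN4 at -3.53 (SE 0.35, adjusted p = 0.00297) and DSP (desmoplakin) at -2.29 (SE 0.61, adjusted p = 0.0459). With a library left out, CLDN4 kept its H2A.Z.1 call in all 6 fits, JUP in 4, and DSP its combined call in 1. Upon H2A.Z.2 depletion 0 of 20 were called by edgeR, 3 had an unadjusted p under 0.05 and DESeq2 called 2. Against siCtrl 3 alone and siCtrl 4 alone, 8 and 9 of 18 were lower and 5 and 5 higher upon H2A.Z.1 depletion. Those 2 fits called 25.4% and 28.0% of all genes lower, and 47.8% and 53.0% in either direction. Promoters of genes from this list were searched for the motif that the SNAI and ZEB factors are known to bind. The letters CAGGTG, or CACCTG for the other strand, were looked for in the 300 bases around each start (250 before to 50 after, RefSeq, hg38), and 20.6% of 35116 such windows held them. DSP and JUP (in 1 of its 2 windows) held them and are printed with the motif in capitals. Both genes were called lower in the H2A.Z.1 and in the combined depletion. The windows of CLDN4, which was called lower in both depletions too, and of CLDN1, GRHL1, MARVELD2 and KRT8 had none. Those of PATJ, MUC1, OCLN, CRB3 and others held them, and listed genes without a window were not searched. Among the genes with the motif, PATJ (0.50), MUC1 (0.36), OCLN (-0.07), TJP1 (-0.29) and CDS1 (-0.98) were not called upon H2A.Z.1 depletion. Any part of the motif in these changes was not tested. JUP held a further copy on the other strand, whose window overlaps the one printed.
DSP, chr6:7541481-7541510, plus strand: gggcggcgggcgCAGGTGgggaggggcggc
DSP, chr6:7541574-7541603, plus strand: gaagaaaccggcCAGGTGtggcctaggcgc
JUP, chr17:41786002-41786031, minus strand: ccacctgccgagCAGGTGagcgcacggagt
Among the members, the windows of VIM, FN1, PRRX1, TWIST2 and ZEB2 held no such letters, and 2 of the 7 start sites of ZEB1 did. SNAI1, SNAI2, EPCAM and CDH1 had no window in the promoter set used, so they were not searched.

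Of 36 partners and regulators of the transition factors, all tested, 9 were lower and 5 higher upon H2A.Z.1 depletion, with a median of -0.03. SMAD3, which carries TGF-beta signals to the nucleus, fell by 1.71 (SE 0.11, adjusted p = 0.000384) and PAK1, a kinase of the cytoskeleton known to phosphorylate SNAI1, by 1.58 (SE 0.11, adjusted p = 0.000442). ID2, which blocks basic helix-loop-helix factors, rose by 1.04 (SE 0.26, adjusted p = 0.0257) and the Hippo kinase LATS2 by 0.73 (SE 0.12, adjusted p = 0.00712). In the combined depletion 7 were lower and 4 higher, among them FBXO45, of a ubiquitin ligase (-1.44), SMAD3 (-1.27), ID2 (1.31) and LATS2 (0.77), and upon H2A.Z.2 depletion 0 of 36 were called by edgeR, 4 had an unadjusted p under 0.05 and DESeq2 called 2. Of 20 other factors that promote the transition, 15 were tested upon H2A.Z.1 depletion, with 5 lower, 0 higher and a median of -0.51. SOX4, an HMG-box factor, fell by 1.90 (SE 0.15, adjusted p = 0.000564). In the combined depletion 3 of these were lower, among them SOX4 (-0.61), and TEAD1, the DNA-binding partner of YAP, was higher (0.66, SE 0.13, adjusted p = 0.0203). Upon H2A.Z.2 depletion 0 of 15 were called by edgeR, 6 had an unadjusted p under 0.05 and DESeq2 called 2. With a library left out, SMAD3, PAK1 and SOX4 kept their H2A.Z.1 calls in all 6 fits.

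For the 3 members with the widest range between groups, the genes most like them over the 10 libraries were listed by Pearson's r of log2(CPM + 1) among the 14346 genes that averaged 1 CPM or more. The libraries share their groups and 1 sequencing lane, so r is a description. SNAI2 was followed by LURAP1L (r = 0.992), ASXL1, a chromatin regulator (r = 0.992), and the pseudogene GGT8P (r = 0.990), whose reads may be shared with related genes. LURAP1L had mean levels of 21.5 and 13.2 CPM in siCtrl 3 and siCtrl 4, 15.7 CPM in siH2A.Z2, and 5.52 and 6.51 CPM in siH2A.Z1 and the combined depletion, close to those of SNAI2 group by group. PRRX1 was most like PDE5A, a cyclic GMP phosphodiesterase (r = 0.988), COA6 (r = 0.983) and CNDP2 (r = 0.978), and TWIST2 was most like WDTC1 (r = 0.990), BAG3, a co-chaperone (r = 0.971), and SDC4, a membrane proteoglycan (r = 0.968). PDE5A had 48.6 and 99.9 CPM in siCtrl 3 and siCtrl 4, 35.4 CPM in siH2A.Z2, 25.2 CPM in the combined depletion and 14.8 CPM in siH2A.Z1, the same order of groups as PRRX1.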

How the data were processed

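Total RNA depleted of ribosomal RNA was sequenced as strand-specific paired-end libraries in 1 lane, and 10 libraries in 5 groups of 2 were analysed. The authors aligned reads to hg38 with STAR, and deposited raw counts per gene from HTSeq 0.6.1 on RefSeq with strand. No row lacked a gene name. The authors' DESeq2 1.22.1 tables (fold changes, p-values and 36 per-library columns in all) were not used.

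The counts were tested in R 4.3.3 with edgeR 4.0.16 (quasi-likelihood F test, two-sided, TMM, filterByExpr), with Benjamini-Hochberg adjustment over all genes tested. A call needed an adjusted p under 0.05 and an absolute log2 fold change over 0.32 (non-additive effects: adjusted p only). Each depletion was fitted with the 4 control libraries, the control siRNAs in 5 groups and contrasts among depletions in 4 groups of all 10 libraries. The script was tested on simulated counts. Alternatives were DESeq2 1.42.0, other scalings, no filter, each control siRNA alone, libraries left out and a replicate block. RPKM used the union of exons in GENCODE, so levels between genes depend on the annotated isoforms. Python 3.11.15 and matplotlib 3.10.9 drew the figures. The labels do not say that libraries came from separate cultures, so p-values measure the spread between these libraries.

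Members and lists were chosen with earlier results of these data known. Beside the members and targeted genes, the text names, per list and depletion, the 2 called genes that rose most and the 2 that fell most (average of 1 CPM or more), and the 3 genes most correlated with each of the 3 members of widest range. Some genes that this rule picks are not reported here.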

Additional observations from a re-analysis of the deposited data

How the results depend on the processing

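With 2 libraries a group, small changes of low members were not detectable. The number of members called upon H2A.Z.2 depletion moved from 0 to 2 against siCtrl 3 alone and to 5 against siCtrl 4 alone, and all genes called from 127 to 2260 and 4708 (673 by DESeq2). The number upon combined depletion moved from 1 to 2 without the filter on low counts, 4 with DESeq2, 4 with all 10 libraries in 4 groups, 5 against siCtrl 3 alone and 6 against siCtrl 4 alone. DESeq2 called 2 members in H2A.Z.1 against H2A.Z.2 depletion, beside 31.0% of genes. With the control siRNAs as separate groups, an alternative chosen after seeing the data, the numbers were 2 upon H2A.Z.2 depletion, 5 upon combined depletion, 5 in H2A.Z.1 against H2A.Z.2 depletion, 1 in combined against H2A.Z.1 depletion and 3 for non-additive effects. Of all genes this alternative called 18.5%, 39.4%, 48.0%, 19.4% and 9.91% in the same order. The cause of these moves was not tested, beyond fewer or separate control libraries by construction. Leaving out 1 library gave 0 to 4 members called upon H2A.Z.1 depletion, 0 to 3 upon combined depletion (3 without either siCtrl 3 library) and 0 to 1 in combined against H2A.Z.2 depletion. Of all genes these fits called 5.29% to 26.3%, 0.450% to 14.8% (12.8% and 14.6% without a siCtrl 3 library) and 3.40% to 5.17%.

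Values that were uncalled against the pooled controls turned direction. FN1 turned to 0.65 upon H2A.Z.2 and 0.62 upon combined depletion against siCtrl 3 alone, and to 0.050 and 0.015 with separate control groups. SNAI1 turned to 0.13 upon H2A.Z.1 and 0.069 upon combined depletion against siCtrl 3 alone, and SNAI2 to 0.22 upon H2A.Z.2 depletion against siCtrl 4 alone. ZEB1 upon H2A.Z.1 depletion turned to 0.011 by library size only and 0.11 against siCtrl 3 alone, and upon H2A.Z.2 depletion to -0.070 against siCtrl 4 alone. Upon combined depletion ZEB1 turned to 0.077 by library size only, 0.049 with upper-quartile factors, 0.00055 without the filter, 0.00064 with the replicate block, 0.00063 with the crossed block and 0.19 against siCtrl 3 alone. Leaving out 1 library gave ranges across 0 for EPCAM upon H2A.Z.1 depletion (-0.52 to 0.021) and between control siRNAs (-0.21 to 0.12), FN1 upon H2A.Z.2 (-0.25 to 0.13) and combined depletion (-0.27 to 0.12), SNAI1 upon H2A.Z.1 depletion (-0.37 to 0.079), and ZEB1 upon H2A.Z.1 (-0.16 to 0.0085) and combined depletion (-0.069 to 0.077).

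Replicate numbers are shared by the groups, but same-numbered libraries correlated in their deviations from 0.17 to 0.51 between the other groups and from -0.47 to -0.11 with the combined depletion, so they were not taken as pairs. With the replicate block 3 members were called upon H2A.Z.1 depletion (TWIST2 lost, adjusted p = 0.0725), 0 upon H2A.Z.2 depletion, 1 upon combined depletion and 7 between the control siRNAs, and 1, 0, 1 and 0 in the remaining contrasts. Of all genes, the block called 21.2%, 0.0371%, 7.44% and 35.2% in the named comparisons. In the remaining contrasts it called 29.1%, 2.39%, 11.4% and 0.0303%, in the same order. With the numbers of the combined depletion crossed, also chosen after seeing the data, 1 member was called upon combined depletion, beside 10.2% of genes. Of 48 list counts under alternatives, 25 stayed within 1.5 times the main count and 23 did not, and 30 of 40 member levels moved by less than 1 SD under scaling by library size only.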
